A study of Mus musculus with 13 samples.

Results

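Cirbp and Rbm3 encode the cold-inducible RNA-binding proteins, and their mRNA levels were followed through 18 h of mild cooling in cultured fibroblasts. The members were all transcript clusters (the sets of probes by which the array measures a gene) that are annotated to Cirbp or Rbm3. There were 4 of them among the 28853 clusters of the array, 1 for Cirbp and 3 for Rbm3, and 0 of the 4 carried the symbol of another gene. The cells were primary mouse embryonic fibroblasts from a commercial source, grown in high-glucose medium with serum at 37°C and then either moved to 32°C (hypothermia) or left at 37°C (normothermia). Total RNA was measured on 13 arrays: a common starting array at 0 h, which carries the normothermia label, and then 1 array per temperature after 0.5, 1, 2, 4, 8 and 18 h. Each array held the pooled RNA of 3 dishes. There were therefore no replicate arrays, tests took their error from the scatter around the fit or between pairs of arrays, and the number of arrays limited the precision.

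Both genes belong to a small family of glycine-rich RNA-binding proteins with a single RNA recognition motif and an arginine- and glycine-rich tail. They are known as the classical mRNAs that rise in mammalian cells under mild hypothermia. Their proteins bind many mRNAs and affect their stability, translation and polyadenylation. Cirbp is known for slowing the division of cooled fibroblasts and for its part in the circadian clock, and Rbm3 for supporting translation and synapse survival in the cold. The cultures carried fibroblast markers: 11 of 11 (Col1a1, Col1a2, Col3a1, Fn1, Vim, Thy1, Pdgfra, Pdgfrb, Dcn, Lum and S100a4) had mean log2 intensities of 10.1 or more, in the upper part of the array.

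Cirbp rose at 32°C, going up at every step, and had no called trend at 37°C. At 37°C its log2 intensity was 8.48 at 0 h, 8.80 at 0.5 h, 8.72 at 1 h, 8.80 at 2 h, 8.56 at 4 h, 8.41 at 8 h and 8.63 at 18 h. At 32°C it was 8.71 at 0.5 h, 8.90 at 1 h, 9.43 at 2 h, 9.80 at 4 h, 10.20 at 8 h and 10.34 at 18 h. Every array at 32°C from 1 h on lay above all 7 arrays at 37°C, and the array at 0.5 h lay inside their range. In linear intensity the level went from 356.6 at 0 h to 1296 at 18 h of cooling, 3.63-fold of the start.

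**Figure D1:**
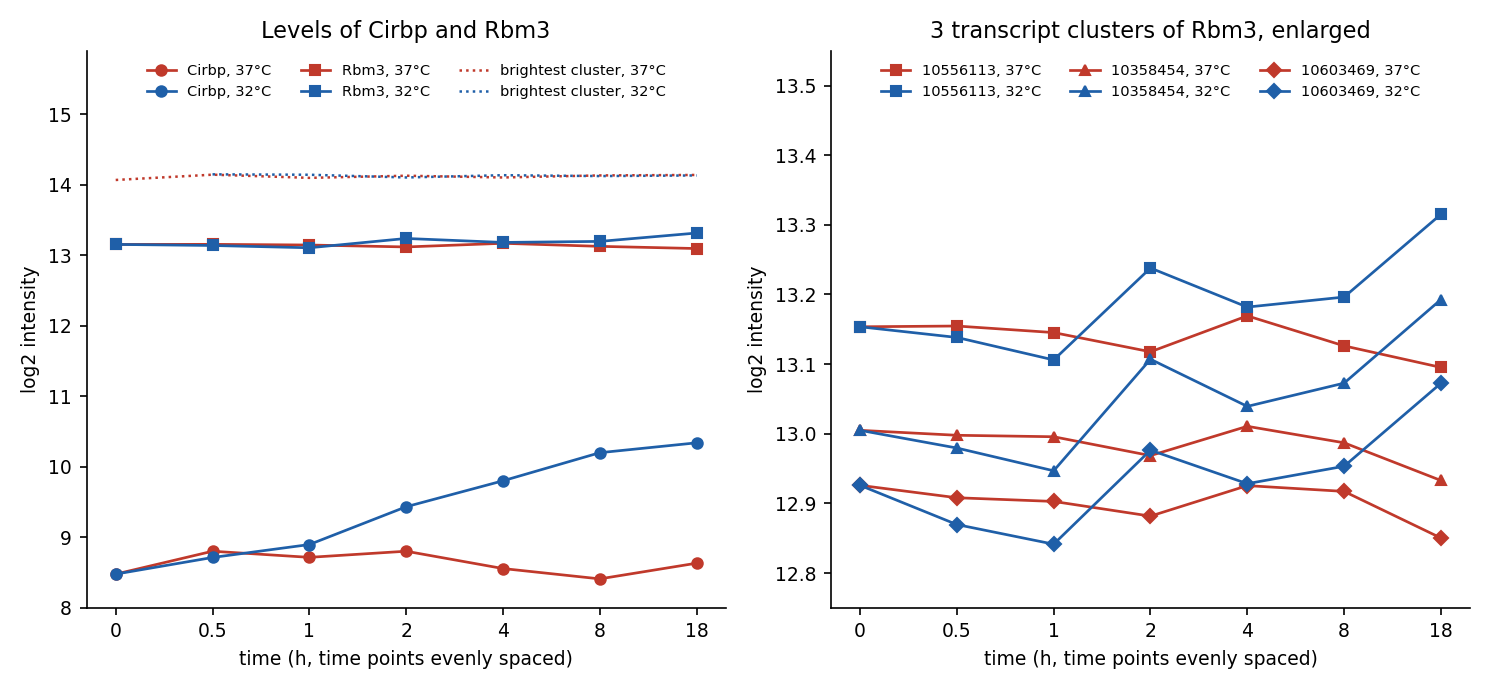
Left, log2 intensity of Cirbp (circles) and of the brightest Rbm3 cluster (squares) against time in h at 32°C (blue) and 37°C (red), with the brightest cluster of each array as dotted lines. Right, the 3 Rbm3 clusters on an enlarged axis. Each point is 1 array of 3 pooled dishes, so there are no error bars; Cirbp at 32°C climbs from 8.48 to 10.34, while Rbm3 stays between 13.1 and 13.3.

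The onset of the Cirbp response was at 1, 2 or 4 h, depending on the rule. By the rule that the cooled value stays above the highest of the 7 values at 37°C, it began at 1 h, where the excess was small (477 against a highest value of 447 in linear intensity). Of the 19938 genes tested, 0.953% lay above their range at 37°C at 1, 2, 4, 8 and 18 h. By the rule of at least 1.5-fold over the array of the same time at 37°C, the response began at 2 h, and with 2-fold it began at 4 h. Cirbp was 1 of 3 genes, 0.015% of those tested, that were at least 1.5-fold higher at 2, 4, 8 and 18 h.

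The earliest change of Cirbp did not separate the temperatures. From 0 to 0.5 h it went up by 0.24 on the log2 scale at 32°C and by 0.32 at 37°C, both measured from the same array at 0 h. The cause of this shared step was not tested. The difference of 32°C minus 37°C was -0.09 at 0.5 h and 0.18 at 1 h, and then 0.63 at 2 h, 1.24 at 4 h, 1.79 at 8 h and 1.71 at 18 h. In fold terms these last 4 differences were 1.55, 2.37, 3.46 and 3.26.

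Among all genes, Cirbp moved from the lower part of the distribution at 0.5 h, with 21.4% of genes below it, to its top. Ordered by the difference between temperatures, it was in place 15672 of 19938 at 0.5 h, 1584 at 1 h, 58 at 2 h, 3 at 4 h and 1 at both 8 and 18 h. The shares of genes at least 1.5-fold higher at 32°C were 0.0401% at 0.5 h, 0.371% at 1 h, 0.366% at 2 h, 0.401% at 4 h, 0.366% at 8 h and 0.512% at 18 h. Cirbp was among them from 2 h on. The rate of its rise at 32°C was highest from 1 to 2 h, at 0.54 on the log2 scale in 1 h, and was 0.014 per h from 8 to 18 h. The difference between temperatures had reached 36.9% of its 18 h value at 2 h and 72.9% at 4 h.

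**Figure D2:**
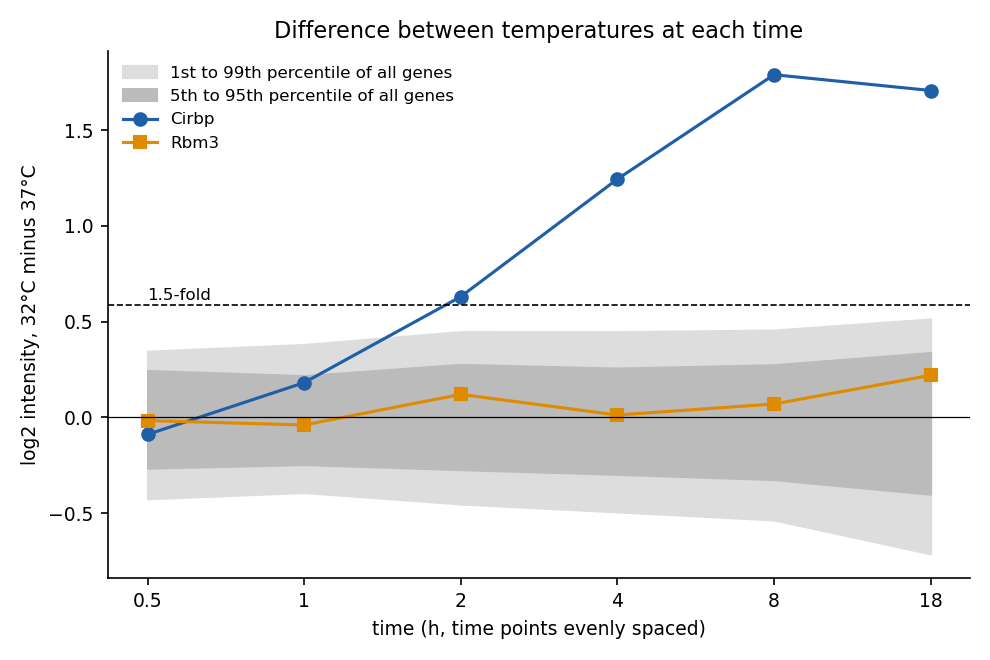
Difference in log2 intensity between 32°C and 37°C at each time in h for Cirbp (blue circles) and Rbm3 (orange squares), 1 pair of arrays a point, with grey bands for the central percentiles of all 19938 genes. Cirbp crosses the dashed line of 1.5-fold at 2 h and reaches 1.79 at 8 h, while Rbm3 stays within the 5th to 95th percentile at all 6 times.

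The tests of the Cirbp course passed for the cooled series and for the difference between series. The slope at 32°C was 0.34 ± 0.020 (SE) on the log2 scale per time point (limma, adjusted p = 3.11e-04), against a background of 0.0451% of genes called upward. At 37°C the slope was -0.017 ± 0.026 (SE, limma adjusted p = 0.955). In that control series 0% of genes passed, with 1156 of 19938 at an unadjusted p under 0.05. The divergence from the common start, the growth of the difference between temperatures per time point, was 0.29 ± 0.024 (SE, limma adjusted p = 9.82e-04), the highest value of all genes, where 1.17% were called upward. With a separate level for 32°C, the difference of the slopes was 0.41 ± 0.038 (SE, limma adjusted p = 0.0365), against 0.015% of genes called upward. That call did not hold over all transcript clusters (limma adjusted p = 0.113), on relative ranks (0.195), with time as the logarithm of hours (0.0657) or when 0.5, 1, 2, 4 or 8 h was left out (0.0627 to 0.217). Both series share the array at 0 h, which adds nothing to either of these differences.

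Split into phases, the late difference of Cirbp passed the test and the early one did not. Over 4, 8 and 18 h the mean difference was 1.58 ± 0.29 (SD, n = 3 pairs of arrays), or 2.99-fold (limma adjusted p = 0.00599), where 0.802% of genes were called upward. Without the pair at 8 h it was 1.48, and the call was lost (limma adjusted p = 0.0671). Over 0.5, 1 and 2 h it was 0.24 ± 0.36 (SD, n = 3 pairs; limma adjusted p = 0.736). In this early phase 0% of genes passed, with 1453 at an unadjusted p under 0.05. The late minus early difference, a test added after the data were seen, was 1.34 ± 0.19 (SE, limma adjusted p = 0.0971), and 0 genes passed that test, with 2285 at an unadjusted p under 0.05. With a variance that depends on the signal, Cirbp passed (limma adjusted p = 0.0468) with 6 genes falling and no other rising. The course at 32°C was also the most ordered possible. Cirbp went up at 6 of 6 steps, as 0.0953% of genes did, for a Kendall tau of 1 (exact p = 3.97e-04, adjusted p = 0.172 over all genes). At 37°C tau was -0.19 (exact p = 0.562).

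The Cirbp promoter carries a sequence that is known for this gene. The octamer TCCCCGCC is described as a mild cold-responsive element to which the transcription factor Sp1 binds. The 250 bases before the first of the 2 RefSeq starts used here are therefore shown with that octamer in capitals. The window lies on the plus strand at chr10:80167589-80167838 of GRCm38.p6, upstream of the gene's first exon at that start, and Cirbp as a whole spans chr10:80165990-80172786. That span begins before the window, and the bases before its first position are not shown here.

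Cirbp: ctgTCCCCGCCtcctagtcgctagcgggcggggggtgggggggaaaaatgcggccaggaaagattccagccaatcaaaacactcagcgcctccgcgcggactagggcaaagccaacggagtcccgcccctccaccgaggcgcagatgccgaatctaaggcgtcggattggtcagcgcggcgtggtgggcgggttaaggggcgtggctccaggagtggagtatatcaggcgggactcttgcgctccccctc

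The octamer was searched on both strands and occurred 1 time, 247 bases before the start. In the same window the GC box core GGGCGG, a typical Sp1 motif, occurred 3 times and the CCAAT box 2 times, counting both strands, and none of these overlapped the octamer. Of 32851 windows of 250 bases before RefSeq starts, 4.64% held the octamer, 32.7% GGGCGG and 33.8% CCAAT. The window before the other start of Cirbp, at chr10:80167921-80168170, held 4 GGGCGG and neither of the other motifs. These matches are letters in a window, and no binding was measured here. Sp1 mRNA itself was at a mean log2 intensity of 9.44, with a divergence of -0.017 ± 0.016 (SE, limma adjusted p = 0.632).

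Rbm3 was bright on every array and differed little between the temperatures. On its brightest cluster, the one used in the tests, the log2 intensity at 37°C was 13.15 at 0, 0.5 and 1 h, 13.12 at 2 h, 13.17 at 4 h, 13.13 at 8 h and 13.10 at 18 h. At 32°C it was 13.14 at 0.5 h, 13.11 at 1 h, 13.24 at 2 h, 13.18 at 4 h, 13.20 at 8 h and 13.32 at 18 h. The arrays at 32°C from 2 h on lay above all 7 arrays at 37°C, while those at 0.5 and 1 h lay inside that range. The differences between temperatures were -0.016 at 0.5 h, -0.039 at 1 h, 0.12 at 2 h, 0.013 at 4 h, 0.070 at 8 h and 0.22 at 18 h, the last being 1.16-fold. In linear intensity the 18 h values were 10192 at 32°C and 8751 at 37°C.

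By the range rule the onset of Rbm3 was at 2 h, on all 3 clusters. On the dimmest cluster the excess at 4 h was small (7795 against a highest value of 7782 at 37°C in linear intensity). After quantile normalization its log2 value at 4 h equalled the highest at 37°C (12.93), so the rule was not met there. Of all genes, 3.54% lay above their range at 37°C at 2, 4, 8 and 18 h. At its highest Rbm3 was 1.16-fold of 37°C, so it had no onset by the fold rules. The range that Rbm3 cleared was narrow. Its SD over the 7 arrays at 37°C was 0.026 on the log2 scale, and 2.95% of genes had a lower SD. The part of this low scatter in the onset was not tested. The SD of Cirbp was 0.15, with 91.0% of genes lower. Among all genes the Rbm3 difference was in place 4649 of 19938 at 2 h, 8789 at 4 h, 5903 at 8 h and 2851 at 18 h.

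None of the tests on the brightest Rbm3 cluster passed, and no test result is given for its other clusters. The divergence was 0.022 ± 0.011 (SE) on the log2 scale per time point (limma adjusted p = 0.339), and with a variance that depends on the signal the adjusted p of limma was 0.0792. The slope at 32°C was 0.024 ± 0.015 (SE, limma adjusted p = 0.440) and at 37°C -0.0074 ± 0.0090 (SE, limma adjusted p = 0.942). The late difference was 0.10 ± 0.11 (SD, n = 3 pairs; limma adjusted p = 0.467) and the early difference 0.022 ± 0.086 (SD, n = 3 pairs; limma adjusted p = 0.959). Kendall tau at 32°C was 0.52 (exact p = 0.136, adjusted p = 0.477), with 3 of 6 steps upward.

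The other clusters of Rbm3 followed the same course at lower brightness. At 18 h their log2 intensities were 13.19 and 13.07 at 32°C against 12.93 and 12.85 at 37°C, and the differences of 0.26 and 0.22 were close to the 0.22 of the brightest cluster. Over the 13 arrays the 3 clusters correlated at Pearson r between 0.965 and 0.993. They are annotated with the same 12 accessions and are not independent measurements of the gene. RefSeq places Rbm3 at chrX:8138975-8145880 and the pseudogene Rbm3-ps at chr1:150264926-150266073 in GRCm38.p6, and which cluster reads which of them was not determined here.

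The difference between temperatures was larger for Cirbp than for Rbm3 in 5 of the 6 pairs of arrays. The Cirbp difference minus the Rbm3 difference was -0.07 at 0.5 h, 0.22 at 1 h, 0.51 at 2 h, 1.23 at 4 h, 1.72 at 8 h and 1.49 at 18 h on the log2 scale. The mean over the pairs was 0.85 ± 0.73 (SD, n = 6 pairs), positive in 5 of 6. An exact sign-flip permutation test, 2-sided, gave p = 0.0625, and the smallest p that 6 pairs allow is 0.03125. The difference in log2 response between the genes was therefore not past 0.05 over all 6 pairs. Rbm3 was also read within 0.82 to 1.04 of the brightest cluster, and the part of this in the gap between the genes was not tested.

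Rbm3 was read among the brightest clusters of the array and Cirbp was not. As a place in brightness from 0 to 100, Rbm3 lay between 99.1 and 99.5 on the 13 arrays and its other clusters between 98.7 and 99.3. Its distance to the brightest cluster of the same array was 0.82 to 1.04 on the log2 scale, or 1.76 to 2.06-fold. The brightest cluster itself lay at 14.07 to 14.15 on every array. It is the highest signal read, and the upper limit of the scale was not known here. Cirbp lay between places 65.0 and 87.0, at 3.79 to 5.72 below the brightest cluster. Brightness of different clusters depends on their probes as well as on mRNA, so these places describe the signal and not the number of molecules.

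Clusters as bright as Rbm3 differed by small amounts at 18 h. Of 28853 clusters, 212 (0.735%) had a mean at or above that of Rbm3, and 0 of them were past 1.5-fold in either direction (0%, exact 95% binomial interval 0 to 1.72%), against 789 of all clusters (2.73%). The differences of these 212 ran from -0.36 to 0.22, and the highest was that of Rbm3. That set is cut at the mean of Rbm3 itself, and over all clusters with means from 13 to 14 the highest difference was 0.34. Among the 7745 clusters at or above the mean of Cirbp, 138 were past 1.5-fold (1.78%, exact 95% binomial interval up to 2.10%). Clusters share arrays and are not independent, so both intervals cover counting only.

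**Figure D3:**
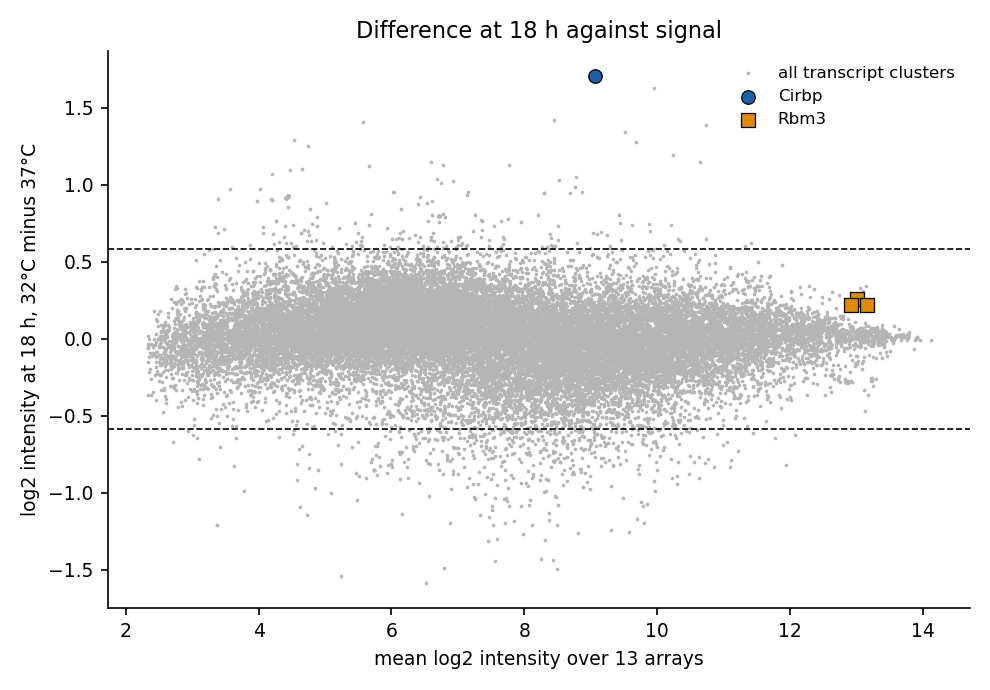
Difference in log2 intensity between 32°C and 37°C at 18 h against the mean log2 intensity over 13 arrays, for all 28853 clusters (grey), Cirbp (blue circle) and the 3 Rbm3 clusters (orange squares), with dashed lines at 1.5-fold. The cloud narrows on the right, where Rbm3 lies near the upper edge at 0.22 to 0.26. Cirbp is the highest point at 1.71, and clusters with means from 4 to 6 reach 1.41.

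The narrowing began below the level of Rbm3. The SD of the 18 h difference was 0.257 among clusters with means from 8 to 10, 0.198 from 10 to 12, 0.115 from 12 to 13 and 0.084 from 13 to 14. None of the 310 clusters with means of 13 or more was past 1.5-fold. Whether the signal of Rbm3 had room to rise further, or its mRNA changed by more than the signal, was not tested here. The methods of the study list a quantitative PCR assay for Rbm3, and its values were not used here. A bulk measurement also cannot tell more cells with the mRNA from more mRNA per cell, for Cirbp as for Rbm3.

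Of the 27 measured genes linked to Cirbp and Rbm3, 2 passed in the divergence, against 2.83% of all genes called in either direction. With so few genes, these counts and those of the separate lists do not set the linked genes apart from the rest. Of the regulators, 8 of 9 were measured (Sp1, Hnrnph1, Trpv4, Trpv3, Trpm8, Trpa1, Ntrk2 and Creb1, without Hsf1), of which 0 rose and 1 fell in the divergence, where 1.66% of all genes were called downward. That gene was Creb1, a transcription factor activated by cAMP and calcium signalling, which had log2 intensities of 9.64 at 0 h and, at 18 h, 9.17 at 32°C and 9.57 at 37°C. Its divergence was -0.098 ± 0.016 (SE, limma adjusted p = 0.0179), and the call was lost without 4 h (limma adjusted p = 0.0587) or without 8 h (limma adjusted p = 0.101). Creb1 was lower at 32°C in 6 of 6 pairs, and the share of all genes that were so was not counted. The late difference of Creb1 was -0.55 ± 0.16 (SD, n = 3 pairs; limma adjusted p = 0.0111), a level of 0.681-fold, where 2.15% of all genes were called downward. This call was also lost without 8 h (limma adjusted p = 0.102). Hnrnph1, a splicing factor known to act on the temperature-dependent exon of Rbm3, had a divergence of -0.046 ± 0.016 (SE, limma adjusted p = 0.150). The cation channels Trpm8, Trpa1 and Trpv3 had mean log2 intensities of 5.23 to 5.98, under the median of all cluster means at 7.21. The cation channel Trpv4 was above that median, at 7.97.

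Of the 11 genes whose mRNAs are reported targets of either protein, 0 rose and 1 fell, against 1.17% of all genes called upward and 1.66% called downward. Tert, the catalytic subunit of telomerase, had a divergence of -0.065 ± 0.014 (SE, limma adjusted p = 0.0395) at a mean log2 intensity of 7.01, and the call was lost when any of 0.5, 2, 4, 8 or 18 h was left out (limma adjusted p from 0.0572 to 0.147). Clock, a core activator of the circadian clock, was at -0.053 ± 0.016 (SE, limma adjusted p = 0.109), and Dbp, a clock output gene, at 0.063 ± 0.025 (SE, limma adjusted p = 0.209). The others (Per3, Txn1, Rpa2, Atr, Ccne1, Hif1a, Rtn3 and Yap1) lay between -0.050 and 0.017. The list's median divergence was -0.012, and that of all genes was 0.0020. Txn1 was read at a mean place of 99.8 in brightness, above Rbm3.

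Among the 4 genes that modify or import Cirbp protein, 0 passed in either direction, where 2.83% of all genes did. Prmt1, which methylates arginines in its tail, was at 0.050 ± 0.012 (SE, limma adjusted p = 0.0533) and higher at 32°C in 6 of 6 pairs. The share of all genes higher in 6 of 6 pairs was not counted. Tnpo1, its nuclear import factor, and the kinases Gsk3b and Csnk2a1 were at -0.020, -0.0052 and -0.014. Of the 4 receptors of extracellular Cirbp, Tlr4, Ly96, Trem1 and Il6ra, 0 passed, with divergences from -0.015 to 0.018. Trem1 had a mean log2 intensity of 4.98, near the lower end of the array. The median divergence was -0.00055 over the 8 regulators, -0.0096 over the modifiers and 0.0035 over the receptors.

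**Figure D4:**
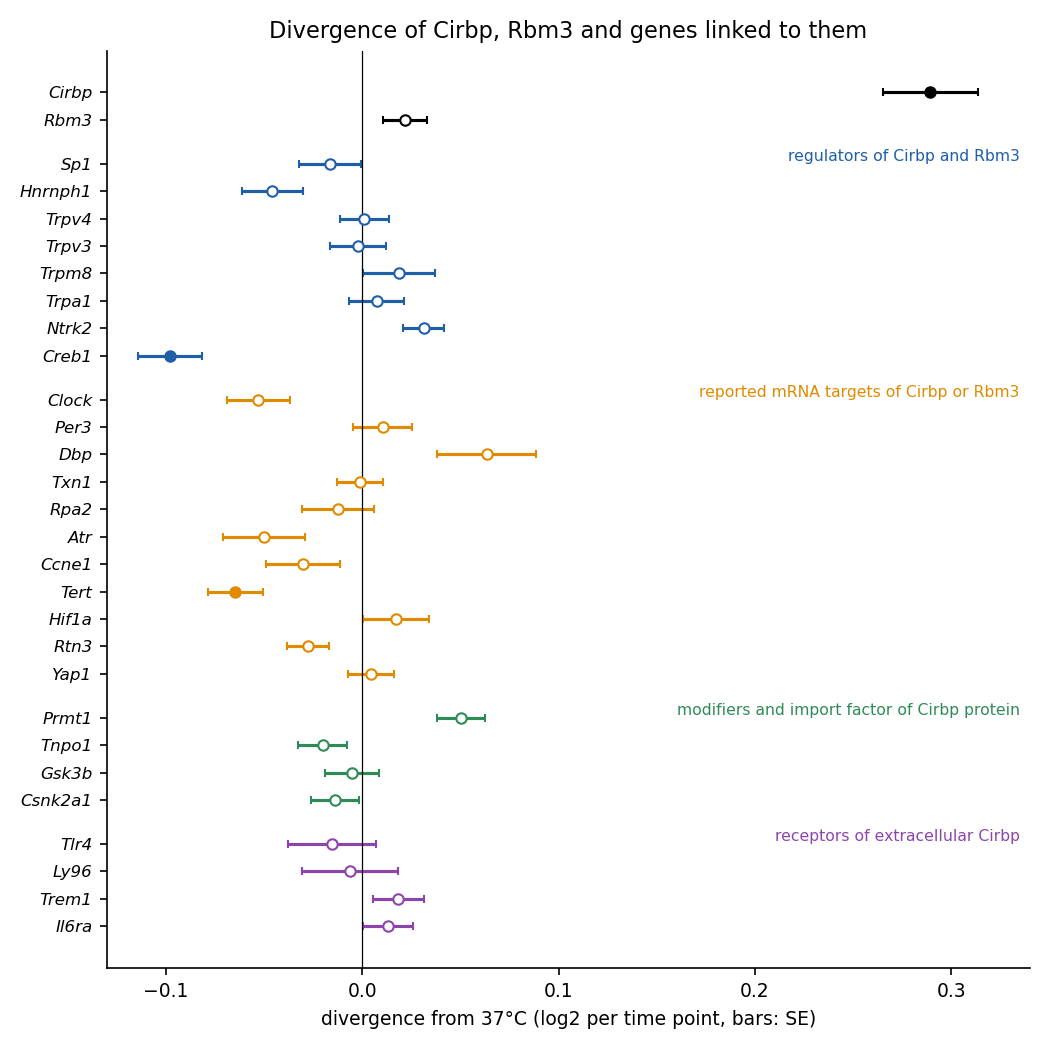
Divergence of 32°C from 37°C in log2 intensity per time point, with bars for the SE of the fit over 13 arrays, for Cirbp, Rbm3 and the 27 measured genes of 4 lists linked to them. Filled symbols have a limma adjusted p under 0.05: Cirbp at 0.29, Creb1 at -0.098 and Tert at -0.065.

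Ordered by likeness of pattern (Pearson r of log2 values over the 13 arrays, which include both temperatures), the genes nearest to Cirbp were Zfand2a (0.965), Srxn1 (0.964), Ino80c (0.955), Xpa (0.953) and Pex3 (0.948). At 18 h these were 1.15, 1.52, 1.38, 1.69 and 1.38-fold of 37°C, all under the 3.26-fold of Cirbp. The genes nearest to Rbm3 were Fank1 (0.959), Tox2 (0.938), Eif2b3 (0.924), Tbrg1 (0.916) and Gsto1 (0.912), at up to 1.27-fold at 18 h. Rbm3 was in place 412 by likeness to Cirbp (r = 0.780). All of these genes were read on the same arrays, so effects of a single array are shared.

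Markers of other cell types gave no gene past the divergence test. Of 16 such genes (4 of macrophages and 3 each of endothelium, epithelium, skeletal muscle and neural cells), 15 had mean log2 intensities between 4.77 and 7.65 and Acta1 was at 11.1. The summed linear intensity of the macrophage markers was 320.4 to 348.0 at 37°C and 342.8 to 473.0 at 32°C, with Cd68 at a divergence of 0.053 ± 0.015 (SE, limma adjusted p = 0.0858) and Csf1r at 0.049 ± 0.014 (SE, limma adjusted p = 0.0969). Ptprc and Adgre1 had mean log2 intensities of 5.37 and 4.77. At 18 h they were at 5.42 and 4.91 at 32°C against 5.30 and 4.68 at 37°C, with divergences of -0.011 and 0.015. The sum over the epithelial markers was 189.0 to 212.2 at 37°C and reached 317.7 on a single array at 32°C, that of 1 h, with the others at 186.7 to 210.4. The sum over the skeletal muscle markers was 2359 to 2439 at 37°C and 2153 to 2631 at 32°C, highest at 0.5 h. The macrophage sum was highest at 18 h, with the other arrays at 32°C at up to 367.8. The sums over the endothelial and neural markers were 219.8 to 253.9 and 262.3 to 296.6 at 37°C, and 226.7 to 256.8 and 260.6 to 296.4 at 32°C. The sum over the 11 fibroblast markers was 53530 to 54767 at 37°C and 50375 to 55109 at 32°C. The part of these shifts in the courses of Cirbp and Rbm3 was not tested.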

How the data were processed

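RNA of primary mouse embryonic fibroblasts was hybridised by the authors to Affymetrix mouse gene arrays, 13 in all, each of 3 pooled dishes. The deposited values are intensity values on a linear scale, 4.24 to 18146.4, and were used after log2 transformation. The summary and normalization of probes were not given in the sources used here. Array medians differed by 0.046 on the log2 scale, and 27.0% of all values recurred exactly on another array. Clusters were named through the platform annotation and RefSeq (GRCm38.p6). The 19938 genes tested were those with a single symbol, at their brightest cluster. Models were fitted over all genes with limma 3.58.1 in R 4.3.3, with Benjamini-Hochberg adjustment at 0.05, 2-sided. Time entered as the order of the 7 time points, 0 to 6. In the divergence, time points were blocks and 32°C had no level of its own. The divergence fit was run on data simulated from its own model with independent noise. Such a run cannot show effects shared by an array or courses of another shape. Figures were drawn with matplotlib 3.10.9. Named were all clusters of both genes, all linked genes past a test with up to 3 others by size, and the 5 genes most alike to each. Members and lists were chosen with earlier results of these data known. Alternatives were quantile normalization, relative ranks, other gene sets, a variance trend, time on a log scale and leaving out each time point. Protein sequences and a promoter of Rbm3 were not used here.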

Additional observations from a re-analysis of the deposited data

Results flagged for a closer look

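The slope of Cirbp on time differed between the temperatures. At 32°C minus 37°C it was 0.41 ± 0.038 (SE) on the log2 scale per time point in a fit with a separate level for each temperature (limma adjusted p = 0.0365). The sign was the same in every alternative run, but other gene sets and a variance trend cannot change it. The adjusted p of limma was 0.113 over all transcript clusters, 0.195 on relative ranks, 0.0657 with time as the logarithm of hours, and 0.0627 to 0.217 when 0.5, 1, 2, 4 or 8 h was left out, so the call did not hold there. It held with quantile normalization, with genes above the median signal, with a variance trend and without 18 h (0.48, limma adjusted p = 0.0211). The corresponding value of Rbm3 was 0.040 ± 0.025 (SE, limma adjusted p = 0.524). Whether Cirbp and Rbm3 differ in this slope was not tested.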

How the results depend on the processing

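The divergence of Cirbp and its slope at 32°C kept their direction and their call in all 14 and 13 alternatives. For the divergence, leaving out 0 h returns the main result by construction and is not a separate check. Other gene sets and a variance trend cannot change these estimates, and bear on the call only. The same holds for the slope at 32°C when 2 h is left out. The late difference of Cirbp lost its call on relative ranks (18.4 rank points, limma adjusted p = 0.0519), and leaving out single times gave 1.48 to 1.75, with the call lost without 8 h. For Cirbp the slope at 37°C changed sign without 8 h (-0.057 to 0.0013 over the times left out), and the early difference of Rbm3 changed sign without 2 h (-0.028 to 0.052); neither was called. No test of the brightest Rbm3 cluster passed in any alternative, with limma adjusted p from 0.0792 upward for the divergence. The onset of Cirbp moved from 2 to 4 h with a rule of 2-fold. The mean difference between Cirbp and Rbm3 ran from 0.68 to 1.03 with single times left out (sign-flip exact p from 0.0625 to 0.125). The smallest p that 5 pairs allow is 0.0625, so none of these runs could pass 0.05. Creb1 and Tert lost their divergence calls on relative ranks and with a separate level for 32°C, and Tert also over all transcript clusters. Counts over all genes moved more. The divergence called 565 genes, 167 on relative ranks, 359 over all transcript clusters, 4 with a separate level for 32°C and 40 to 627 with single times left out. The trend at 32°C called 19 genes, 52 after quantile normalization, 2 on relative ranks, 225 above the median signal, 2 over all transcript clusters, 48 with a variance trend, 353 with time as the logarithm of hours and 2 to 23 with single times left out. The late difference called 588, 0 on relative ranks, 179 over all transcript clusters and 0 to 490 with single times left out. The causes were not tested. Each array is a pool, so the spread between dishes is unknown. Whether the brightness of Rbm3 limits its measured change was not tested here.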
